A study of Mus musculus with 6 samples.

Results

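The 10 genes described here encode the enzymes that build fatty acids and join them into triglyceride: Acly, Me1, Acaca, Acacb, Fasn, Elovl6, Scd1, Scd2, Dgat1 and Dgat2. They were taken by gene symbol from a table of 43346 genes in mouse femur. All 10 were found, and all 10 were among the 18757 genes that passed the filter on low counts. The samples came from C57BL/6 mice, an inbred laboratory strain, aged 4 months. The right distal femur received 24 Gy of image-guided X-rays in 1 session, at 6.6 Gy per minute over 5 mm of the metaphysis, the spongy end of the shaft beside the growth plate. The left femur of the radiated mice was the control, so both groups came from animals exposed in 1 leg, and radiation cannot be told apart from the side of the body. Bone from this region was taken on day 21, after muscle had been removed, which gave 3 radiated and 3 non-radiated RNA-seq libraries. The labels do not say whether the 3 libraries of a group came from separate mice, so the p-values measure only the spread between these libraries.

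Fatty acid synthesis turns surplus carbon into fat in the cytosol. Acly cleaves citrate to acetyl-CoA, the carboxylases Acaca and Acacb turn acetyl-CoA into malonyl-CoA, and Fasn joins these units into palmitate with NADPH that Me1 helps to supply. Elovl6 lengthens palmitate to stearate, Scd1 and Scd2 insert the first double bond, and Dgat1 and Dgat2 add the last fatty acid to diacylglycerol. In marrow the fat-storing cells are adipocytes, which are known to become more numerous after radiation.

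The libraries held 34034251 to 48708383 gene counts, and the 10 genes held 99 to 28990 counts each per library. In non-radiated library 2 the single row AY036118 took 32.9% of the counts, against 0.321% to 5.61% in the other 5 libraries. Levels below are in CPM, counts scaled to a common library size by the trimmed mean of M-values (TMM), which limits the weight of such a row. The values of a group are given in the order of its libraries 1, 2 and 3, and control means non-radiated. The 8 bone markers summed to 6110, 4526 and 6869 CPM in the control femurs and to 4271, 3373 and 3951 CPM in the radiated femurs, without overlap. Their median log2 fold change was -0.49, with 7 of 8 negative and 2 called lower. The number called lower was 4 with a replicate block and 5 with no filter. It was 0 with a muscle term in the fit, 1 under library totals alone and 1 to 4 without single libraries. Of all 18757 tested genes, 4.56% were called higher and 3.24% lower, which is the background for each marker list here. The 10 markers of blood-forming marrow summed to 18193 to 21897 CPM without radiation and 17430 to 20858 CPM with it, with 2 called higher and 1 lower (2 and 4 with the block). Although the sums overlapped, single marrow markers moved in both directions. Their log2 fold changes ran from -1.41 to 0.76 (median -0.25), with 4 positive and 6 negative. For 9 of these 10 the CPM values of the groups did not overlap, against 25.9% of all tested genes. The part of these shifts in the results below was not tested. Skeletal muscle was removed before extraction, yet its RNA was measured in every library. Its 18 markers summed to 586, 891 and 477 CPM in the control femurs, and to 2014, 6281 and 628 CPM in the radiated femurs. All 18 had an unadjusted p under 0.05, as did 4040 of all 18757 genes tested by edgeR. None of the 18 was called, among them Acta1 (log2 fold change 2.44) and Ckm (2.35), with adjusted p 0.0854 and 0.103. With the replicate block 15 of the 18 were called higher, including Acta1 (1.82, adjusted p 0.0403) and Ckm (1.82, adjusted p 0.0269). Both were also called under library totals alone, with no filter and without radiated library 3 (2.95 and 2.87, adjusted p 0.00744 and 0.00840). The 12 adipocyte markers summed to 189 to 196 CPM in the non-radiated libraries and to 458, 466 and 314 CPM in the radiated femurs. Of these 12, 9 were called higher, against 4.56% of all tested genes, and none was at 0. The 10 macrophage markers summed to 896 to 948 CPM without radiation and 1105 to 1323 CPM with it. Of these 10, 7 were called higher, against 4.56% of all tested genes. The number was 7 with the replicate block, 4 with a muscle term, 9 by DESeq2's Wald test and 4 to 8 without single libraries. Ucp1, which defines brown fat, was at 0 counts in 5 libraries and at 4 in non-radiated library 3. The list of 7 brown and beige fat markers, Ucp1 among them, summed to 12.3 to 13.1 CPM without radiation. In the radiated femurs it summed to 15.5, 23.5 and 13.8 CPM. All 4 of its tested genes had positive fold changes (median log2 fold change 1.52), and none was called (2 with the replicate block). In bulk tissue, more cells of a type and more RNA per cell cannot be told apart.

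Of the 10 synthesis genes, 3 rose in radiated femur and none fell. The 3 were Scd1 (4.81-fold), Me1 (1.86-fold) and Elovl6 (1.46-fold), and the other 7 were not called. An unadjusted p under 0.05 was reached by 6 of the 10, against 4040 of all 18757 tested genes. The 6 were the 3 called genes with Acaca, Fasn and Scd2, all 6 with positive fold changes. Calls were made at a Benjamini-Hochberg adjusted p under 0.05 from edgeR's quasi-likelihood test, by which 4.56% of all tested genes were higher, 3.24% lower and 7.8% changed in either direction. The 3 calls held in each of the 15 alternative settings, which included the fits that left out each library in turn, a replicate block and a muscle term. CPM values did not overlap between the groups for 4 of the 10 genes, namely the same 3 and Acaca, against 25.9% of all tested genes. The median log2 fold change of the 10 genes was 0.20, and that of all tested genes was 0.0023.

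**Figure D1:**
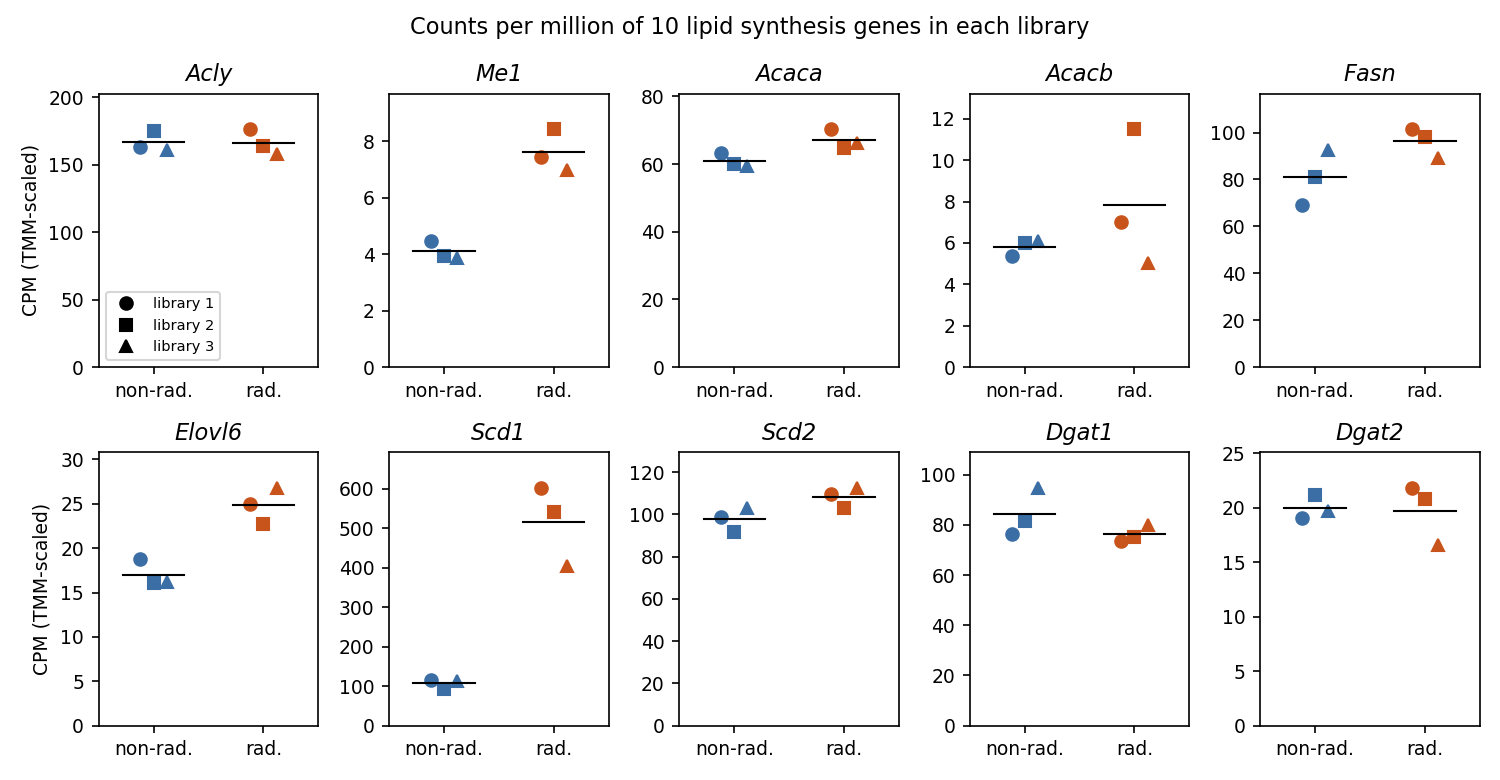
CPM (vertical axis, linear from 0, 1 scale per gene) of each gene in the non-radiated (blue) and radiated (orange) libraries, with the marker shape giving the library number and the bar the group mean. Scd1, Me1, Elovl6 and Acaca show no overlap between groups, and Scd1 is highest in radiated library 1 at 603 CPM.

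Of the supply enzymes, Me1 was called and Acly was not, and the difference between them was not tested. Acly (ENSMUSG00000020917, mm10 chromosome 11, 100476353 to 100528000), which makes the cytosolic acetyl-CoA, was at 163, 175 and 161 CPM in the control femurs, and at 176, 163 and 158 CPM in the radiated femurs. The groups overlapped throughout. Its log2 fold change was -0.0032 (SE 0.06, 95% interval -0.14 to 0.13, adjusted p by edgeR 0.984), and its sign changed in 6 of the 15 alternatives. The interval covers folds from 0.907 to 1.10.

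Me1, the cytosolic malic enzyme that yields NADPH (ENSMUSG00000032418, mm10 chromosome 9, 86581371 to 86695953), was at 4.47, 3.95 and 3.87 CPM in the control femurs. In the radiated femurs it was at 7.45, 8.43 and 6.99 CPM. Every radiated library lay above every non-radiated one. Its log2 change came to 0.90 (SE 0.13, 95% interval 0.61 to 1.18, adjusted p by edgeR 0.00311). Within same-numbered libraries the log2 difference was 0.74, 1.09 and 0.85. With a muscle term in the fit it was 0.76 (adjusted p 0.0246).

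The carboxylases make malonyl-CoA, Acaca in the cytosol for synthesis and Acacb at the mitochondrion, where malonyl-CoA holds back fatty acid oxidation. Acaca (ENSMUSG00000020532, mm10 chromosome 11, 84129672 to 84401651) was at 63.3, 59.9 and 59.4 CPM in the control femurs and at 70.3, 64.8 and 66.2 CPM in the radiated femurs. The groups did not overlap, but the gap was small, with a log2 fold change of 0.14 (SE 0.06, 95% interval 0.01 to 0.27). It was not called (adjusted p by edgeR 0.185). Intervals here are not widened for the number of genes tested, so an interval that leaves out 0 is no call.

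Acacb (ENSMUSG00000042010, mm10 chromosome 5, 114146535 to 114250761) was at 5.38, 5.99 and 6.09 CPM in the control femurs. It was at 7.0, 11.5 and 5.02 CPM in the radiated femurs, so radiated library 2 was the highest of the 6 and radiated library 3 the lowest. The log2 fold change of 0.43 (SE 0.26, 95% interval -0.15 to 1.02) was not called (adjusted p by edgeR 0.384). The order of the radiated libraries was also that of the muscle markers, at 2014, 6281 and 628 CPM. The control orders differed, with muscle markers at 586, 891 and 477 CPM. Control library 3 thus had the most Acacb and the lowest muscle sum of its group. With a muscle term the value was -0.22 (adjusted p 0.601), and without radiated library 2 it was 0.04 (adjusted p 0.933). The part of muscle RNA in the difference was not tested beyond these fits.

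Fasn, the synthase itself (ENSMUSG00000025153, mm10 chromosome 11, 120805940 to 120824178), was at 69.0, 81.0 and 92.8 CPM in the control femurs and at 101, 98.0 and 89.3 CPM in the radiated femurs. The groups overlapped, since non-radiated library 3 lay above radiated library 3. On the log2 scale the change was 0.25 (SE 0.10, 95% interval 0.02 to 0.47, adjusted p by edgeR 0.184). Without non-radiated library 3 Fasn was called, at 0.36 (adjusted p 0.0411). The interval puts the upper bound of its change at 1.39-fold.

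Elovl6, the elongase of palmitate (ENSMUSG00000041220, mm10 chromosome 3, 129532386 to 129638495), was at 18.8, 16.1 and 16.2 CPM in the control femurs. It was at 25.0, 22.8 and 26.8 CPM in the radiated femurs, all above the non-radiated libraries. It rose by 0.55 on the log2 scale (SE 0.09, 95% interval 0.34 to 0.76, adjusted p by edgeR 0.00774). The log2 difference was 0.41, 0.50 and 0.73 within library numbers 1, 2 and 3. With a muscle term the value was 0.66 (adjusted p 0.00724). Elovl6 was highest in radiated library 3, the radiated library with the lowest sum of adipocyte markers. The part of adipocytes in the Elovl6 change was not tested.

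RefSeq promoter windows on build GRCm38.p6, of 250 bases before and 50 after an annotated start, matched 6 of the 10 genes with 7 windows. Scd1, Scd2, Dgat1 and Dgat2 had no window, so their promoters were not searched. The submitters' notes name mm10, the same assembly under another name. The windows of the called genes Elovl6 and Me1 are shown beside that of the uncalled Fasn, to let the start regions of genes with different responses be compared. Capitals mark matches on either strand to CCAAT (the CCAAT box) and GGGCGG (the GC box). The Elovl6 window is chr3:129532136-129532435 on the plus strand, the Me1 window chr9:86695865-86696164 on the minus strand, and the Fasn window chr11:120824498-120824797 on the minus strand.
Elovl6: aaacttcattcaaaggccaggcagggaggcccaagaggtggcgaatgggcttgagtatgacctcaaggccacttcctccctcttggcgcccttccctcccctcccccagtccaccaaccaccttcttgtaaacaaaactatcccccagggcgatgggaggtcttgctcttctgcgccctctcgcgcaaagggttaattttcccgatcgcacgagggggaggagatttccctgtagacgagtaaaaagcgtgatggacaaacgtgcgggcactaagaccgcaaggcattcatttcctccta
Me1: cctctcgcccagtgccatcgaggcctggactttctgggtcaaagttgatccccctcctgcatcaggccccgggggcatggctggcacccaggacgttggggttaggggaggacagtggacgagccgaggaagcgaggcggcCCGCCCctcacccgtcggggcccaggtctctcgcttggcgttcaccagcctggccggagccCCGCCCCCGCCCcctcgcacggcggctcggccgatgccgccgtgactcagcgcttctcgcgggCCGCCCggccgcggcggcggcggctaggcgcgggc
Fasn: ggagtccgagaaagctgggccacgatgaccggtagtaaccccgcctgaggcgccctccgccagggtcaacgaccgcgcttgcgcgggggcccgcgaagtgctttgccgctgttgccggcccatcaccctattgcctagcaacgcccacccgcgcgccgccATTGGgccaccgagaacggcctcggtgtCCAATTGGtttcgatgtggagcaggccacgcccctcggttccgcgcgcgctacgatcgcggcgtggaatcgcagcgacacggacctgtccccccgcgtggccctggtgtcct
Elovl6 starts at the same base in the count table and in RefSeq, while the starts of Me1 and Fasn differ by 39 and 369 bases. The count table's start of Fasn, at 120824178, thus lies outside the printed window. Among the windows not printed, those of Acaca, Acacb and a second Me1 start lie further off, by 65766, 18983 and 8676 bases. The Elovl6 window held no match to any motif searched. The Me1 window held 4 GC boxes, with left ends at -109, -48, -42 and 16 from the start, and the Fasn window held 3 CCAAT boxes, at -90, -62 and -59, of which the last 2 overlap. Of 32851 RefSeq windows of this length, 37.4% held a CCAAT box and 35.7% a GC box. The sterol response element searched as TCACNCCAC, the site of the SREBP factors, and the E-box CACGTG were in none of the 7 windows of these genes, against 1.24% and 7.15% of all windows. A match is a description of letters in the window, and its absence says nothing of the factor. GC content was 55.7% for Elovl6, 74.7% for Me1 and 69.3% for Fasn.

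Scd1 showed the largest change of the 10. It encodes the main stearoyl-CoA desaturase of fat and liver (ENSMUSG00000037071, mm10 chromosome 19, 44394451 to 44407709). It was at 116, 92.9 and 113 CPM in the control femurs and at 603, 543 and 404 CPM in the radiated femurs. The lowest radiated library was well above the highest non-radiated one. The log2 fold change was 2.26 (SE 0.15, 95% interval 1.93 to 2.59, adjusted p by edgeR 2.97e-05), which covers folds from 3.82 to 6.04. By p it ranked 43 among the 18757 genes tested. Same-numbered libraries differed by 2.38, 2.55 and 1.84 on the log2 scale. Radiated library 3 was the lowest of its group for Scd1, for the adipocyte markers and for the muscle markers. With a muscle term the log2 fold change of Scd1 was 2.09 (adjusted p 6.58e-05).

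Scd2, a desaturase that catalyses the same reaction and is known for its expression in brain and in the newborn (ENSMUSG00000025203, mm10 chromosome 19, 44293676 to 44306864), lies on the same chromosome as Scd1. It was at 98.6, 91.7 and 103 CPM in the control femurs and at 110, 103 and 113 CPM in the radiated femurs. Radiated library 2 fell just inside the range of the control group. Its log2 change came to 0.15 (SE 0.06, 95% interval 0.01 to 0.29, adjusted p by edgeR 0.195), so the upper bound was a 1.22-fold change.

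Transcripts of Scd1 and Scd2 resemble each other, with 86.8% identity over 1261 bases in their best match, so reads could be split or dropped between them. Scd3, also similar to Scd1, had 1 to 6 counts per library. Gm11295, which resembles Elovl6, and Gm7329, which resembles Me1, had 0 to 3 and 0 to 1 counts. Gm48795 and Gm7049, which also resemble Me1, and AC123853.3, which resembles Scd1, have no row in the table. Whether reads are shared with them could not be checked. Acaca shared a stretch of at least 100 bases at 90% identity or more with transcripts of 187 genes, the longest match being 6118 bases, and the counts of those genes were not examined. Scd2, Acaca, Acacb and Me1 overlap other rows of the table, and the strand setting of the counting is not given in the sources used here.

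**Figure D2:**
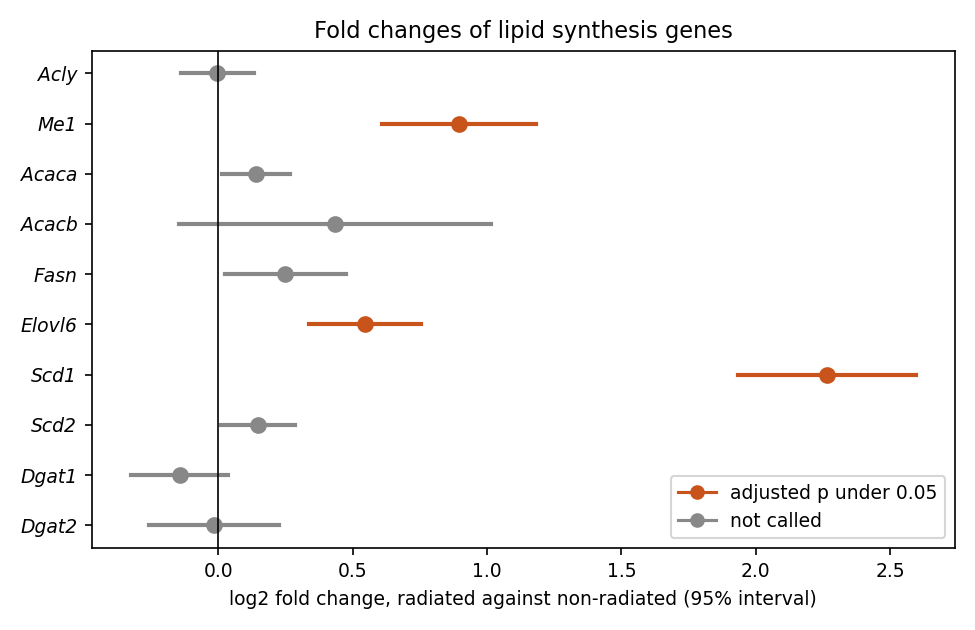
Log2 fold change of radiated against non-radiated femur (horizontal axis) for each gene, in pathway order from Acly to Dgat2, with 95% intervals as lines and called genes in orange. The Scd1 interval of 1.93 to 2.59 lies to the right of all the others, and 4 uncalled intervals, those of Acly, Acacb, Dgat1 and Dgat2, span 0.

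Dgat1 and Dgat2 encode unrelated enzymes for the last step of triglyceride synthesis, and neither was called. Dgat1 (ENSMUSG00000022555, mm10 chromosome 15, 76502015 to 76511951) was at 76.4, 81.5 and 94.8 CPM in the control femurs and at 73.6, 75.3 and 80.1 CPM in the radiated femurs. The radiated libraries lay at the lower end of the range, with overlap, and each was below the control library of its own number. On the log2 scale the change was -0.14 (SE 0.08, 95% interval -0.32 to 0.04, adjusted p by edgeR 0.354), and it turned positive, at 0.05, under scaling by library totals alone.

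Dgat2 (ENSMUSG00000030747, mm10 chromosome 7, 99153663 to 99182713) was at 19.1, 21.2 and 19.7 CPM in the control femurs. In the radiated femurs it was at 21.8, 20.8 and 16.6 CPM, with the highest and the lowest value of all 6 libraries in this group. The log2 fold change was -0.02 (SE 0.11, 95% interval -0.26 to 0.23, adjusted p by edgeR 0.956), and its sign changed in 4 of the 15 alternatives.

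The genes that share a step were also compared within each library, which needs no scaling between libraries. The log2 ratio of Scd1 to Scd2 counts was 0.24, 0.02 and 0.14 in the control femurs, and 2.46, 2.40 and 1.84 in the radiated femurs. The ratio differed by 2.10 between the group means (two-sided exact permutation p 0.1, the smallest that 20 labelings allow, adjusted p 0.3 over 3 ratios), and the groups did not overlap. Scd1 gave 50.3% to 54.1% of the reads of the pair without radiation. With radiation it gave 84.6%, 84.1% and 78.2% in libraries 1, 2 and 3. The 95% Wilson intervals, which cover counting error only, were 48.9% to 51.8% for the lowest library and 84.2% to 85.0% for the highest.

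The ratio of Acaca to Acacb was 3.55, 3.32 and 3.28 in the control femurs and 3.33, 2.49 and 3.72 in the radiated femurs. Radiated library 2 was the lowest and radiated library 3 the highest, and the group means differed by -0.21 (exact permutation p 0.9). The ratio of Dgat1 to Dgat2 averaged 2.07 ± 0.17 without radiation and 1.96 ± 0.27 with it (SD, n = 3), a difference of -0.11 (exact permutation p 0.6).

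**Figure D3:**
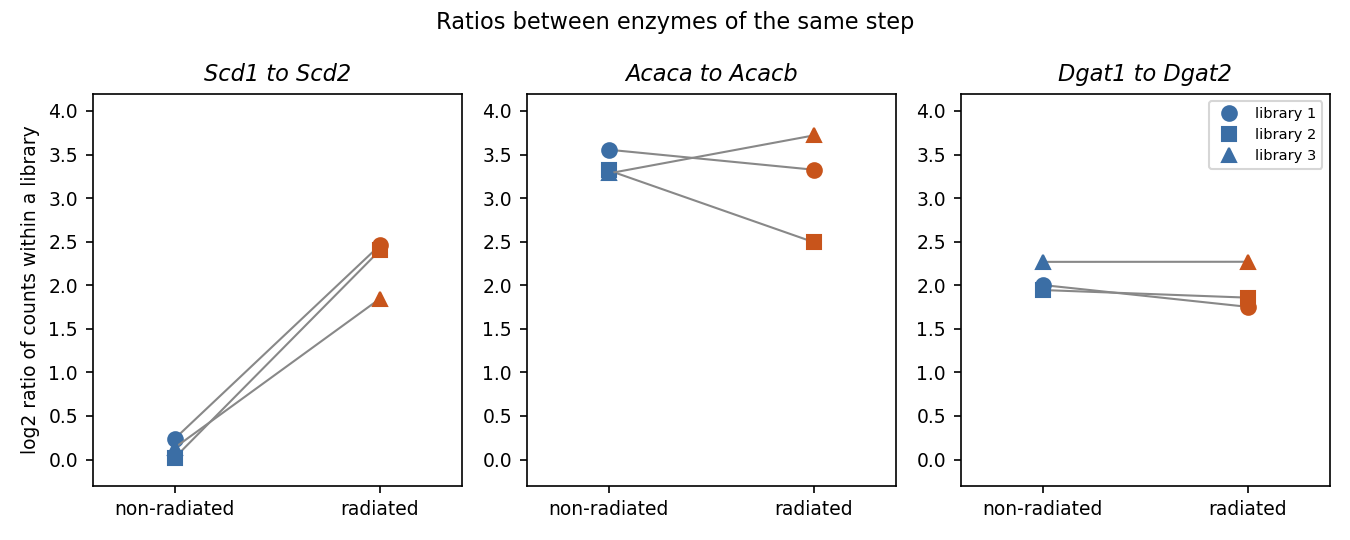
Log2 ratio of raw counts (vertical axis) between genes of the same step in each library, with lines joining libraries of the same number. The Scd1 to Scd2 ratio is at 1.84 or more in the 3 radiated libraries and at 0.24 or less in the others, and the other 2 ratios overlap between groups.

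Levels of different genes were compared per length, as CPM per kilobase (kb) of the length in the table. In non-radiated femur the order was Acly (31.5 ± 1.46), Dgat1 (27.6 ± 3.11), Scd1 (22.2 ± 2.62), Scd2 (17.9 ± 1.05), Dgat2 (8.87 ± 0.479), Fasn (8.22 ± 1.20), Acaca (4.02 ± 0.142), Elovl6 (2.86 ± 0.258), Me1 (1.06 ± 0.0846) and Acacb (0.604 ± 0.0400), in CPM per kb (mean ± SD, n = 3). The neighbours Acly and Dgat1 overlapped in range, as did Dgat2 and Fasn, and the other neighbours did not. In radiated femur Scd1 led at 107 ± 21.1 CPM per kb, ahead of Acly at 31.4 ± 1.75 and Dgat1 at 25.0 ± 1.10 (mean ± SD, n = 3). Scd1 thus went from 17.8% to 49.8% of the summed level of the 10 genes, averaged over 3 libraries each. Without Scd1, the other 9 genes summed to 98.5, 103 and 107 CPM per kb in the control femurs. They summed to 109, 105 and 105 CPM per kb in the radiated femurs, which overlaps the control range.

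The marker Adipoq, the adiponectin gene of adipocytes, rose by 1.02 on the log2 scale (SE 0.13, adjusted p by edgeR 0.00191), and the lipid droplet gene Plin1 by 3.6 (adjusted p 9.61e-05). Within libraries, the log2 ratio of Scd1 to Adipoq was higher in the radiated group, by 1.24 on average, with no overlap. The other 9 genes had a lower mean ratio to Adipoq after radiation, from -0.12 for Me1 to -1.15 for Dgat1, and the groups overlapped for Me1, Elovl6 and Acacb. Relative to Plin1 all 10 genes had lower ratios, with a difference of -1.3 for Scd1. These ratios are descriptions and were not tested. The macrophage and adipocyte markers rose in the same libraries as Scd1, Me1 and Elovl6, and the part of either cell type in these changes was not tested.

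**Figure D4:**
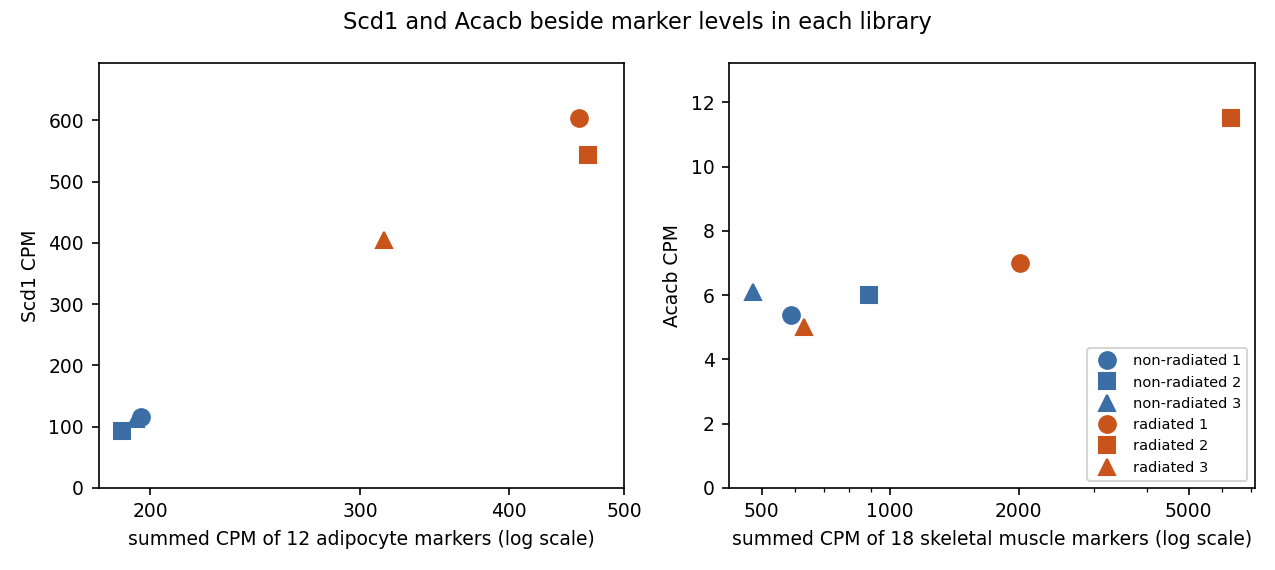
Left, Scd1 CPM against the summed CPM of 12 adipocyte markers, and right, Acacb CPM against the summed CPM of 18 skeletal muscle markers, with 1 point per library and log-scaled horizontal axes. Radiated library 3 is the lowest radiated point in both panels, and radiated library 2, with 6281 CPM of muscle markers, has the highest Acacb at 11.5 CPM.

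The rest of the pathway was read from 6 lists of 111 genes, of which 106 were tested. Of these, 8 were called higher and 4 lower, against 4.56% and 3.24% of all tested genes. The same shares are the background for the counts of each list below. In the list of carbon and NADPH supply, 1 of 14 genes was called. This was Pgls, an enzyme of the pentose phosphate pathway, which makes NADPH, with a log2 fold change of 0.58 (SE 0.07, adjusted p by edgeR 0.00196). It went from 43.5 to 65.1 CPM on average, and it overlaps Fam129c, which holds up to 5589 counts, so the counts of Pgls are uncertain. The list's median was 0.02.

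Among the other desaturases and elongases, none of 14 tested genes was called higher and 2 were called lower. Elovl7, an elongase of longer saturated fatty acids, was at 13.3, 12.9 and 12 CPM in the control femurs and at 6.84, 7.47 and 5.96 CPM in the radiated femurs. It fell by 0.91 on the log2 scale (SE 0.11, adjusted p by edgeR 0.00151), the opposite direction to Elovl6. Hacd4, a dehydratase of the elongation cycle that the table lists as Ptplad2, fell by 0.34 (adjusted p 0.0145). Its call was lost without non-radiated library 1 (-0.31, adjusted p 0.0595) or 2 (-0.33, adjusted p 0.0540), and under library totals alone (-0.15, adjusted p 0.781), and it overlaps Focad, with up to 2115 counts. The call of Elovl7 was lost only under library totals alone (adjusted p 0.0654). The list's median was -0.07.

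In the list for fatty acid activation and the early steps of glycerolipid assembly, 3 of 18 tested genes were called higher and 1 lower, with a median of 0.0087. Gpd1, which makes glycerol phosphate, was at 13.7, 16.1 and 13.4 CPM in the control femurs and at 31.5, 32.6 and 21.5 CPM in the radiated femurs. It rose by 0.99 (SE 0.15, adjusted p by edgeR 0.00487), and by 0.66 with a muscle term (adjusted p 0.0121). Radiated library 3 was the lowest of its group for Gpd1, as for Scd1, the adipocyte markers and the muscle markers. The part of fat or muscle RNA in the Gpd1 change was not tested beyond this fit. Gpam, a mitochondrial enzyme that adds the first fatty acid to glycerol phosphate, was at 39.0, 38.4 and 37.4 CPM without radiation. With radiation it was at 54.4, 56.2 and 61.3 CPM, and it rose by 0.58 (SE 0.06, adjusted p by edgeR 0.000791). Gpat3, an acyltransferase of the endoplasmic reticulum listed as Agpat9, rose by 0.51 (SE 0.09, adjusted p 0.00714), but was not called when scaled by library totals alone (adjusted p 0.0505). Agpat5, which adds the second fatty acid, fell by 0.27 (adjusted p 0.0428). The call of Agpat5 was kept in 6 of 15 alternatives and lost with the replicate block (-0.27, adjusted p 0.0700). It was also lost without non-radiated library 1 (adjusted p 0.127) or 2 (0.101), and without radiated library 1 (0.156), 2 (0.0935) or 3 (0.0631), and with a muscle term (-0.26, adjusted p 0.169). Without single libraries its log2 fold change was -0.31 to -0.22.

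Of 19 regulators, 4 were called higher and none lower, with a median of 0.07. Thrsp, a small nuclear protein known to follow lipid synthesis, rose by 1.89 (SE 0.18, adjusted p by edgeR 0.000406), from 0.960, 1.04 and 1.11 CPM in the control femurs to 3.62, 4.61 and 3.34 CPM in the radiated femurs. Mlxipl, the carbohydrate-responsive factor ChREBP, rose by 2.10 (SE 0.39, adjusted p 0.0120) on 6 to 17 counts in the non-radiated and 39 to 117 in the radiated libraries. Its call was lost without non-radiated library 2 (1.94, adjusted p 0.0507) or 3 (1.97, adjusted p 0.0511) and with a muscle term (1.5, adjusted p 0.0668). Nr1h3, the sterol receptor LXR-alpha, rose by 0.49 (adjusted p 0.0368) and Pparg, the receptor that drives fat cell formation, by 0.35 (adjusted p 0.0451).

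The calls of Nr1h3 and Pparg were each kept in 8 of 15 alternatives. That of Nr1h3 was lost without non-radiated library 1 (adjusted p 0.0749) or 2 (0.0905) and without radiated library 1 (0.0994), 2 (0.0939) or 3 (0.0736). That of Pparg was lost without non-radiated library 1 (adjusted p 0.111), 2 (0.0735) or 3 (0.0912) and without radiated library 1 (0.170) or 2 (0.106). Both were lost with a muscle term, where Nr1h3 had a log2 fold change of 0.46 (adjusted p 0.146) and Pparg of 0.27 (adjusted p 0.262), and under library totals alone, at 0.0586 and 0.165. Srebf1 and Srebf2, which encode the sterol regulatory factors SREBP, are named here after their values were seen. Srebf1 was at 35.5, 38.4 and 43.2 CPM without radiation and 45.9, 44.0 and 38.5 CPM with it, in the order of the library numbers, with a log2 fold change of 0.13 (adjusted p by edgeR 0.464). Srebf2 had a log2 fold change of 0.02 (adjusted p 0.918), which turned negative in 3 alternatives, the muscle term and the fits without non-radiated library 1 or radiated library 2.

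The cholesterol branch, which SREBP factors also drive, had none of 21 genes called higher and 1 called lower, with a median of 0.01. In fatty acid oxidation edgeR called none of 20 genes, and DESeq2's Wald test called 1. By edgeR 3 of the 20 had an unadjusted p under 0.05, against 4040 of all 18757 tested genes. The genes with the smallest p were Cpt1a, the carnitine acyltransferase that malonyl-CoA inhibits, at 0.16 (adjusted p 0.122), and its muscle form Cpt1b, at 0.62 (adjusted p 0.142). Cpt1b was at 7.5, 12.5 and 6.70 CPM in the radiated femurs, the same order as the muscle markers, and its log2 fold change was 0.15 with a muscle term (adjusted p 0.783). It was called under library totals alone (adjusted p 0.0359), with no filter (0.0447) and by DESeq2's Wald test (0.0281). It overlaps Chkb, with up to 2159 counts. The part of muscle RNA in the Cpt1b difference was not tested beyond the fit with a muscle term.

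**Figure D5:**
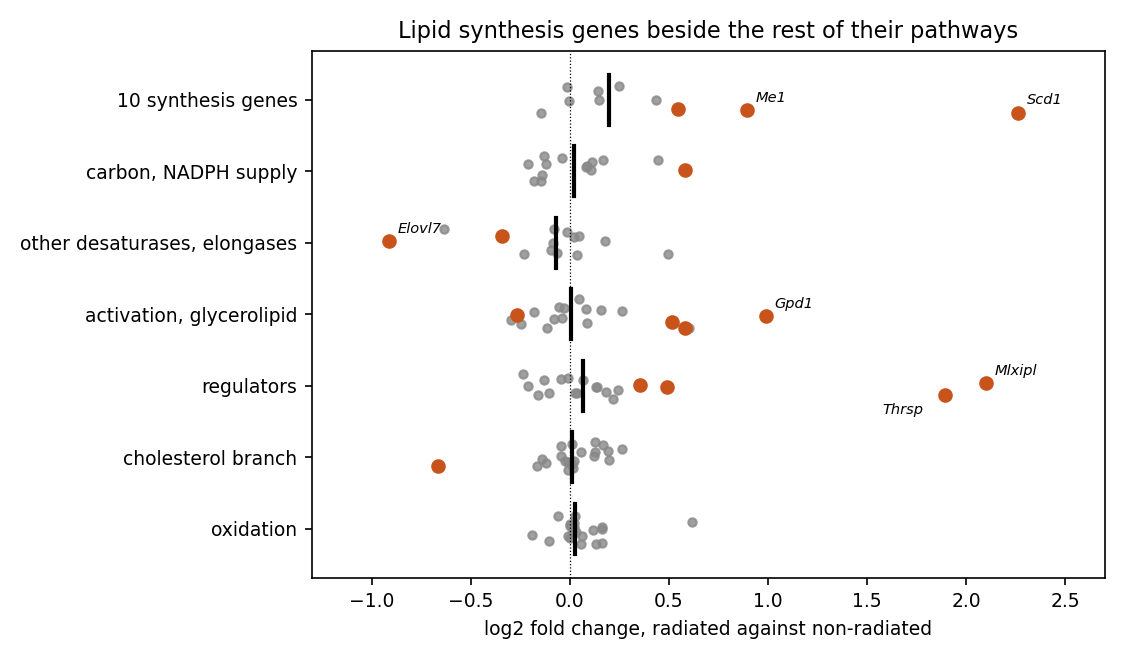
Log2 fold change (horizontal axis) of each tested gene in the 10 synthesis genes and in the 6 other lists, with called genes in orange, uncalled genes in grey, the median of each list as a black bar, and called genes beyond 0.8 in size named. Points are shifted vertically only to separate them. The medians of the 6 other lists lie between -0.07 and 0.07.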

How the data were processed

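RNA-seq of 3 radiated and 3 non-radiated femurs was analysed. The authors deposited raw counts per gene and RPKM per library, per the file headers. RPKM values deposited by the authors were not used, since what their library constant counts is not stated. STAR 2.5.2b, Subread, featureCounts and build mm10 are named in the submitters' processing notes. The annotation and strand setting are not given in the sources used here. The kit was a stranded mRNA kit, per the labels.

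Groups follow the sample titles. With edgeR 4.0.16 (R 4.3.3), genes were filtered by filterByExpr (minimum count 10, minimum total 15), scaled by TMM and tested with glmQLFit and glmQLFTest with group as the only term, with Benjamini-Hochberg adjustment over 18757 genes at 0.05. Standard errors are the log2 fold change divided by the square root of F, and 95% intervals use the fit's degrees of freedom. Ratios within a library used counts plus 0.5 and a two-sided exact permutation test. Transcripts of GENCODE M21 were compared with BLAST 2.17.0 (identity of at least 90% over at least 100 bases for similar genes). Of 194 list entries 7 were matched by gene ID. The fit was tested on simulated counts. Alternatives were DESeq2 1.42.0 size factors and Wald test, limma-voom (limma 3.58.1), library totals with and without AY036118 and Gm26917, 2 filters, a replicate block, a muscle covariate and leaving out each library.

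The 10 genes and all lists were chosen with earlier results of these data known. Named were the 10 genes, and in each other list all called genes (up to 6) or the 2 with the smallest p, and a few markers; 2 genes that this rule names are not reported here. Replicate pairs within a group differed by more than sampling noise (chi-square per degree of freedom 17.9 to 608, from counts without TMM scaling). The highest values, 608 and 521, were those of the pairs with non-radiated library 2, in which AY036118 took 32.9% of the counts. The other pairs were at 17.9 to 134. The numbers 1 to 3 occur in both groups. Deviations from group means correlated across genes at 0.166, 0.277 and 0.187 for the same number, and at -0.170 to -0.008 for different numbers. The numbers were therefore taken as pairs in the replicate block, the differences within same-numbered libraries and the sign-flip permutation test. The main fit and the two-sided exact permutation test of the ratios did not use them as pairs. No label ties a number to 1 mouse.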

Additional observations from a re-analysis of the deposited data

How the results depend on the processing

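The calls of Scd1, Me1 and Elovl6 and the absence of a lower call among the 10 genes held in all 15 alternatives. The number called higher was 3 in each, except 4 without non-radiated library 3, where Fasn was called. With the replicate block 1670 genes were called in place of 1463, and the block changed no call among the 10 genes. In the 6 pathway lists it ended the call of Agpat5, and among the muscle markers it raised the called genes from 0 to 15 of 18. The count over all genes was 974 with the muscle covariate and 764 to 1376 without single libraries.

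Under library totals alone, which shift the median of all genes from 0.0023 to 0.19, no gene was called lower in the lists of other desaturases and elongases, of glycerolipid assembly and of cholesterol (0 each), 2 regulators and 1 oxidation gene were called higher. The glycerolipid list had 0 lower calls under library totals without AY036118 and Gm26917, the replicate block and the muscle covariate, and 2 under DESeq2's Wald test. With the muscle covariate 1 regulator was called higher. Under DESeq2 size factors, no filter and the Wald test 1 regulator was called lower, and 1 oxidation gene was called higher with no filter and with the Wald test. Without single libraries, the desaturase and elongase list had 1 to 2 lower calls, the glycerolipid list 0 to 1, and the regulators 1 to 3 higher calls and 0 to 1 lower. The cause was not tested.

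Signs turned only in uncalled genes. Acacb was at -0.22 with the muscle covariate. Acly was at 0.20 under library totals alone, 0.028 under totals without AY036118 and Gm26917, 0.0010 among genes averaging 1 CPM or more, and -0.049 to 0.029 without single libraries. Dgat1 was at 0.046 under library totals alone. Dgat2 was at 0.18 under library totals alone, 0.014 under totals without those rows, and -0.094 to 0.094 without single libraries. Srebf2 was at -0.012 with the muscle covariate and -0.075 to 0.134 without single libraries. Acta1 and Ckm, which are part of the muscle covariate, were at -0.10 and -0.19 with it. The log2 ratio of Acaca to Acacb was -0.476 to 0.137 without single libraries. The paired mean of the Scd1 to Scd2 ratio was 2.10 (exact sign-flip permutation p 0.25, the smallest for 3 pairs). Mlxipl, with 6 to 117 counts, had the largest SE of the genes named here outside the marker lists, 0.39.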
